A study of Homo sapiens with 27 samples.

Results

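The messages of 10 genes that belong to the response to low oxygen or to glycolysis were followed through a study of MAML3 overexpression in neuroendocrine tumour lines. They are the rows of the deposited count table named ADM, HK2, ALDOA, PGK1, LDHA, SLC2A1, VEGFA, CA9, PDK1 and BNIP3, 10 of 23230 gene symbols. All 10 passed the filter on low counts in each fit. MAML3 belongs to the Mastermind-like coactivators of the Notch pathway. The lines were SK-N-SH (neuroblastoma), QGP-1 and BON-1 (both pancreatic neuroendocrine tumours), and cultures of each received 1 of 3 plasmids by lipofection. These were full-length MAML3 (FL), MAML3 without its first exon (dEx1), both in pCMV6-AC with a V5 tag at the C terminus, or pCMV6-AC with no MAML3 sequence (vector). RNA was taken on day 3 from 3 biological replicates in each of the 9 groups, which gave 27 libraries. SK-N-SH was grown in EMEM, BON-1 in DMEM/F12 and QGP-1 in RPMI, so line, medium and handling cannot be told apart where lines are compared. In each line the whole culture was sampled, and fewer cells of a kind and less RNA per cell cannot be told apart.

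Cells answer low oxygen through the hypoxia-inducible factors, dimers of an alpha subunit such as HIF1A or EPAS1 with ARNT. When oxygen is plentiful, prolyl hydroxylases mark the alpha subunit for VHL, which has it degraded. The dimers bind a short core sequence near their target genes and raise glucose uptake, glycolysis, lactate output and vessel growth. The 10 genes cover these steps. SLC2A1 encodes the glucose transporter GLUT1, and HK2 the hexokinase that traps glucose in the cell. ALDOA and PGK1 encode aldolase A and phosphoglycerate kinase, later enzymes of glycolysis, and LDHA encodes the lactate dehydrogenase subunit that favours lactate. PDK1 encodes a kinase that shuts off pyruvate dehydrogenase, and BNIP3 a mitochondrial protein that promotes mitophagy. CA9 encodes carbonic anhydrase IX, which regulates pH at the cell surface. VEGFA, the angiogenic growth factor, and ADM, the vasodilator peptide adrenomedullin, are secreted.

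RefSeq promoter windows on GRCh38.p14, the 250 bases before an annotated start, were matched to 9 of the 10 genes by symbol (VEGFA had none), 14 windows in all. They were searched on both strands for ACGTG and GCGTG, the core that the dimers bind. CACGTG counts as a match on each strand, and these matches overlap. A match was present in 12 of the 14 windows (85.7%) and in 43.2% of 35116 windows of all genes (ACGTG in 18.5%, GCGTG in 32.2%). The window of SLC2A1 and the first of 2 windows of PDK1 held none. Windows are shown for ADM, which rose with FL in SK-N-SH, for HK2, which fell with dEx1 there, and for CA9, which differed most between the lines, with matches in capitals and 5′ to 3′ on the gene's strand. They are ADM at chr11:10304823-10305072 (plus strand), HK2 at chr2:74833877-74834126 (plus strand, the first of its 2 windows) and CA9 at chr9:35673678-35673927 (plus strand).
ADM: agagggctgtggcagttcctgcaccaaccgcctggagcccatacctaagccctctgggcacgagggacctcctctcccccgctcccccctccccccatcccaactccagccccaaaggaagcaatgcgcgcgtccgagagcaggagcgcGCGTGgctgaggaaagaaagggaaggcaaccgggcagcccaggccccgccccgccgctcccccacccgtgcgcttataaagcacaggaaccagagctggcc
HK2: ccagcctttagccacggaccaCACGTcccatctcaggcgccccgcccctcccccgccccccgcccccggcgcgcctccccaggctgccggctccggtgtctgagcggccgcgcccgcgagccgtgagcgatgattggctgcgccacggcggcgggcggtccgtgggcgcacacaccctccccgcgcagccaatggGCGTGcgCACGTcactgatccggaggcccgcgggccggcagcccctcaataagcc
CA9: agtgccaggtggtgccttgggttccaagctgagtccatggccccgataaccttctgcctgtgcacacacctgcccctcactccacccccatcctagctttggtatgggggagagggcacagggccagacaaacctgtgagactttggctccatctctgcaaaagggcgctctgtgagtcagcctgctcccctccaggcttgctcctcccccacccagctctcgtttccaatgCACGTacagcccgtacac
The ADM window held 1 match, to GCGTG, which began 101 bases before the start. The HK2 window held 3 matches, and the CA9 window 1, to ACGTG on the other strand, 18 bases before the start. A match is a description of the letters and does not show that a factor was bound.

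Total estimated counts per library ran from 73026244 to 120254457. Levels are given as CPM, counts scaled to a common library total, after TMM scaling of all 27 libraries, and changes as fitted log2 fold changes with their standard error (SE). MAML3 was at 7858 to 15840 CPM with FL and 4919 to 13893 CPM with dEx1 in SK-N-SH, against 16.9 to 30.3 CPM in vector. In BON-1 it was at 2789 to 5369 CPM with FL and 3184 to 4112 CPM with dEx1, against 63.0 to 70.6 CPM. In QGP-1 it was at 2231 to 8296 CPM with FL and 2492 to 5413 CPM with dEx1, against 38.5 to 93.7 CPM. In SK-N-SH, FL lay above dEx1 within each replicate number, though the ranges overlapped. The part of this difference in the results below was not tested. Some libraries stood apart on principal components. Among SK-N-SH libraries, component 1 (56.8% of the variance) set FL apart from dEx1, with vector replicate 3 on the dEx1 side and the other 2 vector libraries on the FL side, and the second (16.3%) set replicate 3 of all groups apart. In BON-1, component 1 (42.0%) parted vector replicate 1 from the other 8 libraries. Its second component (32.0%) set replicate 3 of all groups apart. In QGP-1 the first component (60.4%) parted 5 libraries (replicate 1 of all groups, replicate 2 of FL and dEx1) from the other 4. Defining markers were checked in the vector libraries. The 6 mesenchymal markers summed to 11015 to 17343 CPM in SK-N-SH, 849 to 1268 CPM in BON-1 and 5.19 to 10.4 CPM in QGP-1, and the 5 epithelial markers to 113 to 234, 7149 to 15493 and 4299 to 5586 CPM. The 6 neuroendocrine markers in the table summed to 561 to 1451 CPM in SK-N-SH, with INSM1 listed at 0, 14552 to 40132 CPM in BON-1 and 3688 to 6284 CPM in QGP-1. The 8 sympathetic markers, which mark neuroblastoma, summed to 140 to 218 CPM in SK-N-SH. Their sums were 55.3 to 163 CPM in BON-1 and 475 to 484 CPM in QGP-1, so the sum was lower in the neuroblastoma line than in QGP-1. Of these 8 markers, 2 averaged under 1 CPM in SK-N-SH vector, against 7 in BON-1 vector and 4 in QGP-1 vector. TH reached at most 0.0517 CPM in SK-N-SH vector. Each of the 3 endothelial markers averaged under 1 CPM in vector cells of all 3 lines.

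Without a construct, ALDOA and LDHA were the most abundant of the 10 in each line once CPM was divided by the length of the MANE transcript. ALDOA (GRCh37, chr16:30077081-30081735, 10 exons) averaged 642 CPM per kb in SK-N-SH vector, 1079 in BON-1 and 852 in QGP-1. LDHA (GRCh37, chr11:18416110-18429972) came next, at 245, 206 and 292 CPM per kb. PGK1 (GRCh37, chrX:77359745-77384792) and SLC2A1 (GRCh37, chr1:43391024-43424539) lay between 29.5 and 81.3 CPM per kb. PDK1 (GRCh37, chr2:173420818-173473397) had the lowest level of the 10 in BON-1 and QGP-1, at 1.78 and 0.958 CPM per kb, and was at 1.05 CPM per kb in SK-N-SH, where CA9 was lower. Its MANE transcript has 14072 bases, and whether the deposited counts cover all of them is not known. Not divided by length, PDK1 averaged 13.5 CPM in QGP-1 vector, above CA9 at 2.35 CPM.

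The lines themselves differed in 7 of the 10 genes in at least 1 comparison of vector libraries. Between SK-N-SH and BON-1, 1 gene was higher and 4 were lower, against 54.5% of 15763 genes called (26.8% higher, 27.7% lower). Between SK-N-SH and QGP-1, 3 were higher and none lower (55% of genes called, 26.9% higher and 28.1% lower). Between BON-1 and QGP-1, 5 were higher and none lower (43.6% called, 22.6% higher and 21% lower). Counted in either direction, the members' share was below that of all genes between SK-N-SH and QGP-1, and near it in both comparisons with BON-1. Libraries without overlap between lines, as given below, were common, at 25.4% to 33.8% of all genes in each direction.

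CA9 (GRCh37, chr9:35673925-35681156, 11 exons) showed the widest range between lines. It was at 0.465, 0.815 and 1.11 CPM in the SK-N-SH vector libraries, 57.2, 55.1 and 34.8 CPM in BON-1, and 6.0, 0.689 and 0.366 CPM in QGP-1. All BON-1 libraries lay above all others, while SK-N-SH and QGP-1 overlapped, with QGP-1 replicate 1 above all SK-N-SH libraries. CA9 was lower in SK-N-SH than in BON-1 by a log2 change of -5.94 (SE 1.05, edgeR adjusted p = 0.00128) and higher in BON-1 than in QGP-1 by 4.34 (SE 0.97, adjusted p = 0.00622). Between SK-N-SH and QGP-1 the change was -1.60 (SE 0.90, adjusted p = 0.159).

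ADM (GRCh37, chr11:10326620-10328944, 4 exons) followed the order BON-1, SK-N-SH, QGP-1 with no overlap. Vector libraries had 49.9, 39.7 and 39.4 CPM in SK-N-SH, 60.1, 82.3 and 107 CPM in BON-1, and 12.3, 19.7 and 19.4 CPM in QGP-1. It was lower in SK-N-SH than in BON-1 (-0.95, SE 0.26, edgeR adjusted p = 0.0139), higher in SK-N-SH than in QGP-1 (1.29, SE 0.27, adjusted p = 0.00296) and higher in BON-1 than in QGP-1 (2.24, SE 0.27, adjusted p = 0.00023). The first of these calls was lost without SK-N-SH vector replicate 2 (adjusted p = 0.0512).

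HK2 (GRCh37, chr2:75061254-75120486, 18 exons) was lowest in QGP-1. Its vector libraries had 166, 182 and 174 CPM in SK-N-SH, 106, 131 and 172 CPM in BON-1, and 93.8, 60.7 and 65 CPM in QGP-1. It was higher than in QGP-1 both in SK-N-SH (1.21, SE 0.23, edgeR adjusted p = 0.00167) and in BON-1 (0.86, SE 0.23, adjusted p = 0.0136), while SK-N-SH and BON-1 overlapped (0.36, SE 0.22, adjusted p = 0.205).

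PDK1 was lower in SK-N-SH than in BON-1 (-0.76, SE 0.21, edgeR adjusted p = 0.0137) and higher in BON-1 than in QGP-1 (0.85, SE 0.21, adjusted p = 0.0105). BNIP3 (GRCh37, chr10:133781188-133795427) was higher in SK-N-SH than in BON-1 (0.67, SE 0.22, adjusted p = 0.0288) and than in QGP-1 (0.78, SE 0.22, adjusted p = 0.0147). ALDOA was lower in SK-N-SH than in BON-1 (-0.74, SE 0.27, adjusted p = 0.0451), and SLC2A1 higher in BON-1 than in QGP-1 (1.02, SE 0.34, adjusted p = 0.0374). Several of these calls were lost when 1 library was left out, while their fold changes kept their sign in all alternatives. The PDK1 call between SK-N-SH and BON-1 was lost without SK-N-SH replicate 1 or 2 (adjusted p up to 0.0609), and that of BNIP3 without BON-1 replicate 1 or 3 or any SK-N-SH vector library (up to 0.0914). The ALDOA call was lost without any 1 of the 6 vector libraries of SK-N-SH and BON-1. It was also lost with the replicate block and with no filter on low counts (up to 0.122 over these alternatives). That of SLC2A1 was lost without BON-1 replicate 2 or 3, QGP-1 replicate 2 or 3, or SK-N-SH replicate 1 or 2, and with the replicate block (up to 0.0978). In these comparisons the block joined same-numbered libraries of different lines, for which no pairing was checked. PGK1, LDHA and VEGFA passed in none of the 3 comparisons. LDHA ranged from 376 to 854 CPM in SK-N-SH, 266 to 559 CPM in BON-1 and 369 to 1206 CPM in QGP-1, so that the spread within each line covered the difference between them.

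**Figure D1:**
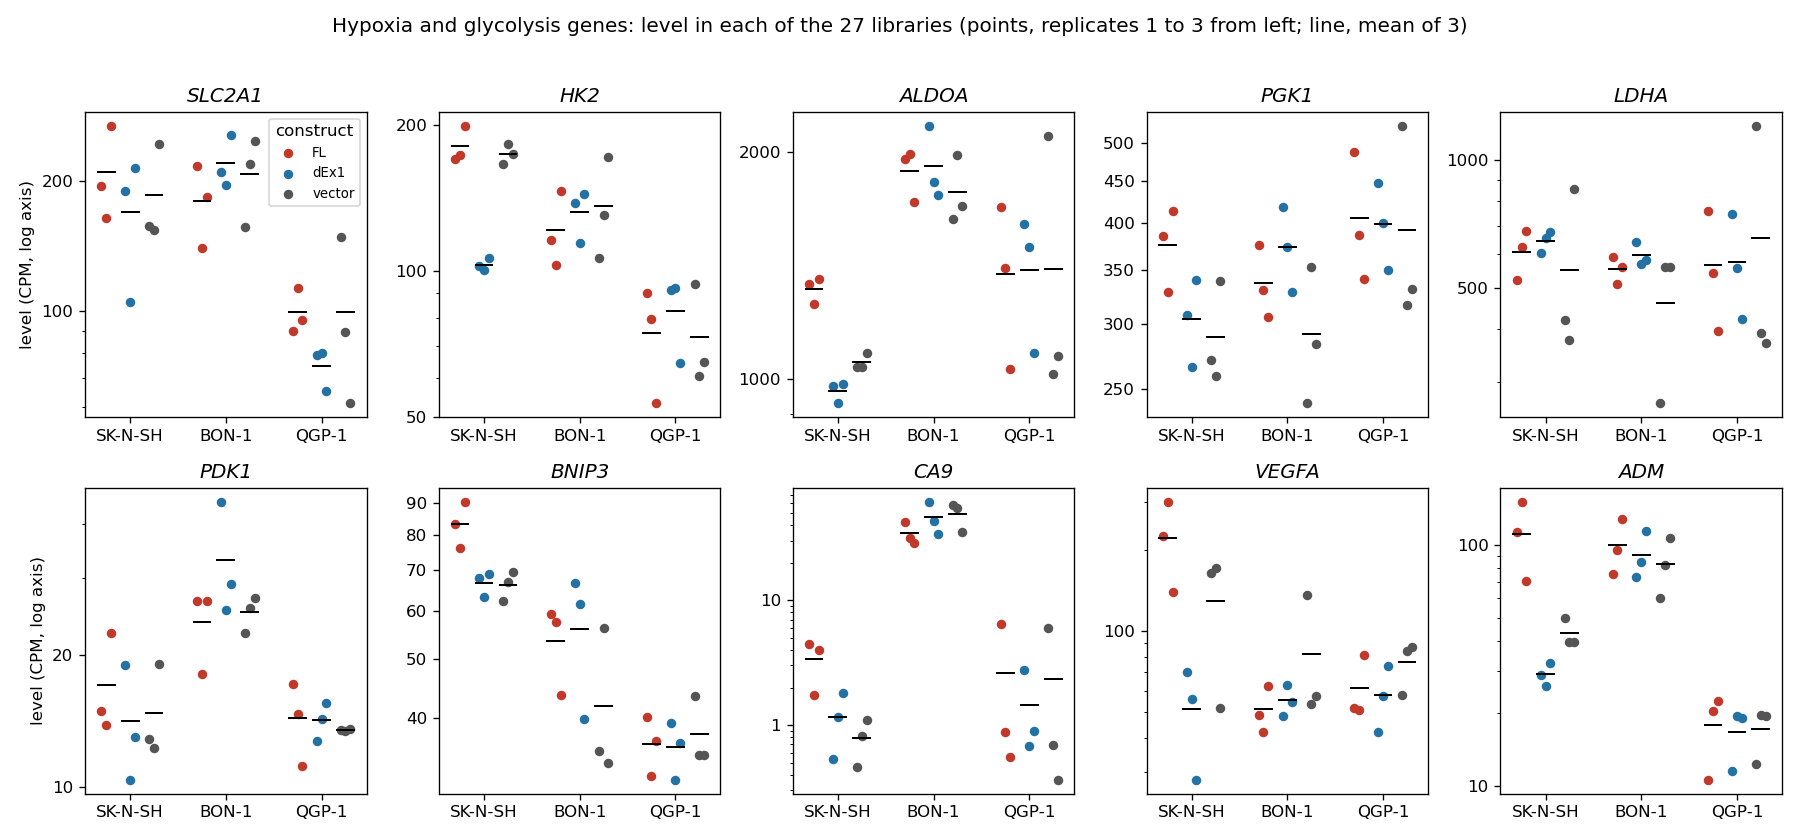
Level of each of the 10 genes in each library, in CPM on a log axis, by line and construct (red FL, blue dEx1, grey vector); points are replicates 1 to 3 from left and black lines are the means of 3. CA9 is highest in BON-1, and in SK-N-SH the dEx1 libraries of HK2, at 100 to 106 CPM, lie below all FL and vector libraries.

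Full-length MAML3 against vector in SK-N-SH asks which of these messages change when neuroblastoma cells express the whole protein. ADM rose 2.59-fold, and in the fit without a replicate block it alone of the 10 passed the test (edgeR adjusted p under 0.05). Over all genes 1.74% were called (255 of 14674) and 0.934% were called higher. All 10 fold changes were positive, with a median of 0.33 on the log2 scale, while the median over all genes tested was -0.01 and 49% of genes were positive. The libraries of ADM, ALDOA, BNIP3 and CA9 did not overlap between the groups, which held for 11.5% of all genes in that direction.

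ADM was at 113, 151 and 70.6 CPM in the FL libraries and 49.9, 39.7 and 39.4 CPM in vector. Each FL library was above each vector library, with FL replicate 3 the lowest of its group. The log2 change was 1.37 (SE 0.25, edgeR adjusted p = 0.0354). Omission of a single library ended this call for 8 of the 9 libraries, FL replicate 3 being the exception (adjusted p up to 0.128), while the fitted change stayed between 1.09 and 1.61 over all alternatives run.

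VEGFA (GRCh37, chr6:43737948-43754224, 8 exons) was at 225, 300 and 139 CPM with FL and 163, 170 and 51.8 CPM with vector. FL lay above vector within each replicate number, but FL replicate 3 was below vector replicates 1 and 2. The log2 change was 0.79 (SE 0.49, edgeR adjusted p = 0.489). With the replicate number as a block it was 0.90 (SE 0.19, adjusted p = 0.0471). CA9 was at 4.48, 1.75 and 4.0 CPM with FL and 0.465, 0.815 and 1.11 CPM with vector. These groups did not overlap, at levels of a few CPM, and the change of 2.10 (SE 0.55) missed the threshold at an edgeR adjusted p of 0.105.

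Among the glycolytic enzymes the changes with FL were smaller. ALDOA was at 1338, 1260 and 1358 CPM with FL and 1039, 1037 and 1082 CPM with vector, a log2 change of 0.32 (SE 0.08, edgeR adjusted p = 0.0739). PGK1 was at 386, 329 and 413 CPM with FL and 271, 260 and 339 CPM with vector, a change of 0.37 (SE 0.14, adjusted p = 0.258). FL was above vector in each replicate number for both. With the replicate block, ALDOA passed at 0.32 (SE 0.05, adjusted p = 0.0262) and PGK1 at 0.38 (SE 0.07, adjusted p = 0.0296). The block, which raised the members called to 4 (ADM, ALDOA, PGK1 and VEGFA), also raised the share of all genes called to 5.3%.

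BNIP3 was at 83.2, 76.0 and 90.4 CPM with FL and 62.4, 67.0 and 69.4 CPM with vector, without overlap (0.33, SE 0.10, edgeR adjusted p = 0.137). HK2, at 170, 173 and 199 CPM with FL and 166, 182 and 174 CPM with vector, had a log2 change of 0.05 with a 95% interval of -0.15 to 0.25. LDHA, SLC2A1 and PDK1 had changes of 0.14, 0.17 and 0.21, each with a 95% interval that held 0. For LDHA the vector libraries were at 419, 376 and 854 CPM, and replicate 3, which stood apart on the first component, was above all FL libraries.

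For dEx1 against vector in SK-N-SH, HK2 alone of the 10 genes passed without the block, and it was 1.69-fold lower. Over all genes 4.47% were called (656 of 14674), 3.64% lower. Of the 10 changes 4 were positive and 6 negative, with a median of -0.09 against 0.01 over all genes. HK2 was at 102, 100.2 and 106 CPM in the dEx1 libraries, against 166, 182 and 174 CPM in vector. The groups were far apart and the spread within each was small, with means of 102.8 ± 3.03 CPM for dEx1 and 174 ± 8.04 CPM for vector (SD, n = 3 each). The log2 change was -0.75 (SE 0.09, edgeR adjusted p = 0.00721), and the call held under all 15 alternatives run.

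ADM was at 28.9, 26.0 and 32.5 CPM with dEx1 and 49.9, 39.7 and 39.4 CPM with vector, without overlap (-0.56, SE 0.24, edgeR adjusted p = 0.216). ALDOA, at 980, 929 and 986 CPM with dEx1 and 1039, 1037 and 1082 CPM with vector, did not overlap either (-0.12, SE 0.08, adjusted p = 0.388). Of all genes, 14.2% were lower with dEx1 than with vector without overlap. VEGFA was at 70.2, 55.8 and 28.0 CPM with dEx1 and 163, 170 and 51.8 CPM with vector. Vector replicate 3 lay among the dEx1 libraries, and the log2 change of -1.31 (SE 0.49) had an adjusted p of 0.163. With the replicate block it was -1.24 (SE 0.19, adjusted p = 0.0144), and HK2 and VEGFA were then the 2 members called, with 15.1% of all genes.

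Vector replicate 3 bore on 2 members in this comparison. Without it, LDHA and VEGFA passed beside HK2, 3 members in all. Calls over all genes moved too, from 656 to between 80 and 2558 when 1 library was left out. Without replicate 3 of all groups, 22.1% of genes were called (3267 of 14808). LDHA was at 604, 655 and 677 CPM with dEx1, above vector replicates 1 and 2 (419 and 376 CPM) and below vector replicate 3 (854 CPM). With all 9 libraries its change was 0.23 (SE 0.28, edgeR adjusted p = 0.678). The remaining PGK1, SLC2A1, PDK1, BNIP3 and CA9 had log2 changes between -0.12 and 0.56, with adjusted p of 0.582 or more.

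Set against each other, the 2 constructs parted further in SK-N-SH. With dEx1 relative to FL, in the fit without the block, 5 of the 10 genes fell (VEGFA, ADM, HK2, ALDOA and BNIP3) and none rose. Over all genes 22% were called (3226 of 14674), 11.5% lower and 10.5% higher. Of the 10 changes 9 were negative, with a median of -0.38, against 0.00 over all genes. The 5 genes called were also the ones whose libraries did not overlap, as 21.9% of all genes did in that direction. These values rest on the same FL libraries as FL against vector and the same dEx1 libraries as dEx1 against vector.

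VEGFA had the largest fitted change of the 10, -2.10 (SE 0.50, edgeR adjusted p = 0.0192), with 70.2, 55.8 and 28.0 CPM in dEx1 libraries and 225, 300 and 139 CPM in FL libraries. Its call was lost without FL replicate 1 or 2 or dEx1 replicate 2 or 3 (adjusted p up to 0.0620). ADM fell by 1.93 (SE 0.25, adjusted p = 0.00178), to 28.9, 26.0 and 32.5 CPM in dEx1 libraries against 113, 151 and 70.6 CPM in FL libraries. HK2 fell by 0.81 (SE 0.09, adjusted p = 0.00113), to a mean of 102.8 ± 3.03 CPM in dEx1 against 181 ± 15.9 CPM in FL (SD, n = 3 each). The calls of ADM and HK2 held under all 15 alternatives.

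ALDOA fell by 0.44 (SE 0.08, edgeR adjusted p = 0.00488), with 980, 929 and 986 CPM in dEx1 libraries and 1338, 1260 and 1358 CPM in FL libraries. Its call was lost in a fit of all 27 libraries (adjusted p = 0.177). BNIP3 fell by 0.31 (SE 0.10, adjusted p = 0.0466), a call lost under 10 of 15 alternatives, among them leaving out FL replicate 1 or 3 or any 1 of the dEx1 libraries (adjusted p up to 0.302). CA9, at 0.540, 1.16 and 1.81 CPM with dEx1 and 4.48, 1.75 and 4.0 CPM with FL, had a change of -1.53 (SE 0.54, adjusted p = 0.0730). PGK1 had a change of -0.29 (SE 0.14, adjusted p = 0.183). With the replicate block both passed, CA9 at -1.64 (SE 0.49, adjusted p = 0.0417) and PGK1 at -0.30 (SE 0.07, adjusted p = 0.0148), which made 7 members called with 32.8% of all genes. SLC2A1 had a change of -0.30 (95% interval -0.98 to 0.39), and LDHA was the only member with a positive change, 0.09 (95% interval -0.55 to 0.73).

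Marker sums of other cell types were compared between the SK-N-SH groups, without a test. The 4 macrophage markers summed to 81.1 to 96.2 CPM with dEx1, 423 to 540 CPM with FL and 225 to 322 CPM with vector, the only sums that did not overlap among all 3 groups. CD68, a lysosomal protein, made up most of each sum (84.5, 471 and 278 CPM on average), while CD14, PTPRC and CSF1R reached at most 2.34 CPM in any of these libraries. The 5 epithelial markers summed to 162 to 284 CPM with dEx1, 108 to 158 CPM with FL and 113 to 234 CPM with vector. For the 6 neuroendocrine markers the sums were 792 to 1522, 399 to 524 and 561 to 1451 CPM, mostly SCG2, with INSM1 listed at 0 in all. The 8 sympathetic markers summed to 193 to 243, 95.6 to 187 and 140 to 218 CPM. In these 3 lists dEx1 overlapped vector and did not overlap FL, and FL overlapped vector except in the neuroendocrine list. The mesenchymal sums, 14108 to 17779, 10222 to 14204 and 11015 to 17343 CPM, overlapped in each pair of groups. The endothelial sums were 1.17 to 1.38, 0.804 to 1.59 and 0.614 to 0.926 CPM. The part of these differences in the results above was not tested.

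**Figure D2:**
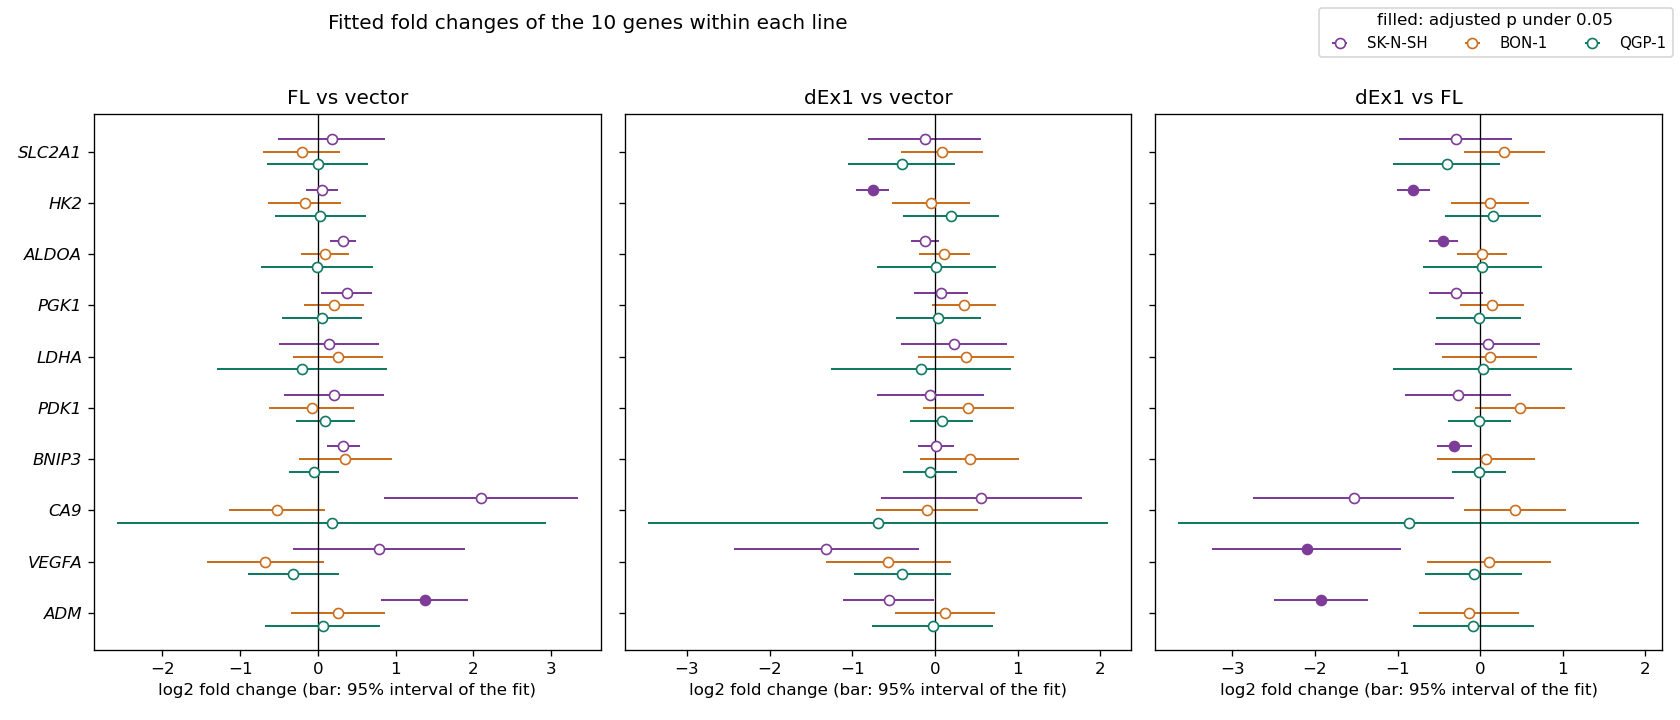
Fitted log2 fold change of each gene within each line for FL against vector, dEx1 against vector and dEx1 against FL; points are fits, bars their 95% intervals, and filled points had an adjusted p under 0.05. Filled points occur in SK-N-SH, where VEGFA and ADM reach -2.10 and -1.93 for dEx1 against FL.

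Other genes of the pathway were counted from 5 lists in the same SK-N-SH fits. With FL against vector, 1 of 57 genes tested passed (1.75%), near the 1.74% of all genes. NRP2, a co-receptor of VEGF, rose by 0.65 (SE 0.11, edgeR adjusted p = 0.0299), with 413, 466 and 360 CPM in FL libraries and 290, 247 and 250 CPM in vector, a call that ended on omission of 8 of the 9 libraries, all but FL replicate 3, and in a fit of all 27 (adjusted p up to 0.281). Of the 17 other HIF targets tested 14 had positive changes (median 0.19), as did 12 of 15 glycolytic enzymes and transporters (median 0.20) and 9 of 10 genes of oxygen sensing (median 0.23). None of these passed, and 49% of all genes were positive.

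With dEx1 against vector, 4 of 57 passed (7.02%, against 4.47% of all genes), 1 higher and 3 lower, and HIF1A itself was among those that fell. It was at 279, 249 and 312 CPM in dEx1 libraries and 430, 425 and 425 CPM in vector, without overlap. The change was -0.60 (SE 0.10, edgeR adjusted p = 0.0146), lost without dEx1 replicate 1 or vector replicate 1 or 2 and in a fit of all 27 (adjusted p up to 0.0750). STC2, a secreted glycoprotein induced by hypoxia, fell by 0.92 (SE 0.21, adjusted p = 0.0456) and was the only 1 of 17 HIF targets called. PDK3, a pyruvate dehydrogenase kinase, rose by 1.01 (SE 0.22, adjusted p = 0.0371) and PDP1, the opposing phosphatase, fell by 0.66 (SE 0.14, adjusted p = 0.0320). The call of PDK3 was lost without dEx1 replicate 1 or 3, FL replicate 1 or 2 or vector replicate 1 or 2 (up to 0.162). The calls of STC2 and PDP1 ended on omission of 7 of the 9 libraries, all but replicate 3 of FL and of vector, and in a fit of all 27 (up to 0.175 and 0.345). None of 15 glycolytic genes passed (smallest edgeR adjusted p = 0.212), and none of 6 receptors.

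Between dEx1 and FL, 14 of 57 list genes passed (24.6%), near the 22% of all genes. Of these 3 rose (5.26%, against 10.5% of all genes) and 11 fell (19.3%, against 11.5%). Of 10 genes of oxygen sensing 2 fell and 1 rose. HIF1A fell by 0.97 (SE 0.10, edgeR adjusted p = 0.000816) to 279, 249 and 312 CPM in dEx1 libraries, against 542, 579 and 529 CPM in FL libraries, and passed under all 15 alternatives. EGLN1, the prolyl hydroxylase that marks the alpha subunits, fell by 0.82 (SE 0.21, adjusted p = 0.0244), and ARNT2, a partner of the alpha subunits, rose by 0.40 (SE 0.08, adjusted p = 0.0111). HIF alpha subunits are controlled largely through protein stability, which these libraries do not measure.

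Of the 17 other HIF targets 3 were lower with dEx1 than with FL (17.6%, against 11.5% of all genes) and none higher, with a median of -0.31, and the share called in either direction was below the 22% of all genes. NDRG1, a stress-responsive gene, fell by 1.42 (SE 0.25, edgeR adjusted p = 0.00561), with 22.4, 19.1 and 22.6 CPM in dEx1 libraries and 77.9, 59.3 and 35.8 CPM in FL libraries. STC2 fell by 1.27 (SE 0.21, adjusted p = 0.00433) and ANGPTL4, a secreted inhibitor of lipoprotein lipase, by 0.71 (SE 0.16, adjusted p = 0.0163). Of 15 other glycolytic genes 2 fell (13.3%), PFKFB4, which makes an activator of phosphofructokinase (-0.45, SE 0.11, adjusted p = 0.0216), and PFKP, a phosphofructokinase (-0.56, SE 0.17, adjusted p = 0.0487). The other 13 did not pass, and the median was -0.08.

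In the list for pyruvate entry and pyruvate dehydrogenase in mitochondria, 2 kinases of that enzyme rose and an opposing phosphatase fell. PDK2 rose by 0.84 (SE 0.13, edgeR adjusted p = 0.00383) and PDK3 by 1.24 (SE 0.22, adjusted p = 0.00539), and PDP1 fell by 0.49 (SE 0.14, adjusted p = 0.0337), out of 9 tested. PDK1, at 19.0, 10.4 and 13.0 CPM in dEx1 libraries and 14.9, 13.8 and 22.5 CPM in FL libraries, had a change of -0.27 with a 95% interval of -0.91 to 0.38. Among 6 receptors of the 2 secreted members, 3 that bind VEGF fell. NRP1 fell by 1.98 (SE 0.40, adjusted p = 0.00980), with 162, 189 and 122 CPM in dEx1 libraries and 700, 801 and 369 CPM in FL libraries. NRP2 fell by 0.98 (SE 0.11, adjusted p = 0.00129) and FLT1 by 0.61 (SE 0.18, adjusted p = 0.0398). The calls of EGLN1, PDP1 and FLT1 were each lost without dEx1 replicate 1, 2 or 3 or FL replicate 1 or 2, and those of PDP1 and FLT1 also in a fit of all 27, that of FLT1 also without vector replicate 2 (adjusted p up to 0.0844 for EGLN1, 0.391 for PDP1 and 0.612 for FLT1 over these alternatives). The call of PFKP ended on omission of 7 of the 9 libraries, all but FL replicate 2 and vector replicate 3, and with no filter on low counts (up to 0.145). That of PFKFB4 was lost without dEx1 replicate 1 or 3 or FL replicate 2 (up to 0.0855), and that of ANGPTL4 without dEx1 replicate 1 or 2 (up to 0.0998). The fit of all 27 ended these 3 calls as well.

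**Figure D3:**
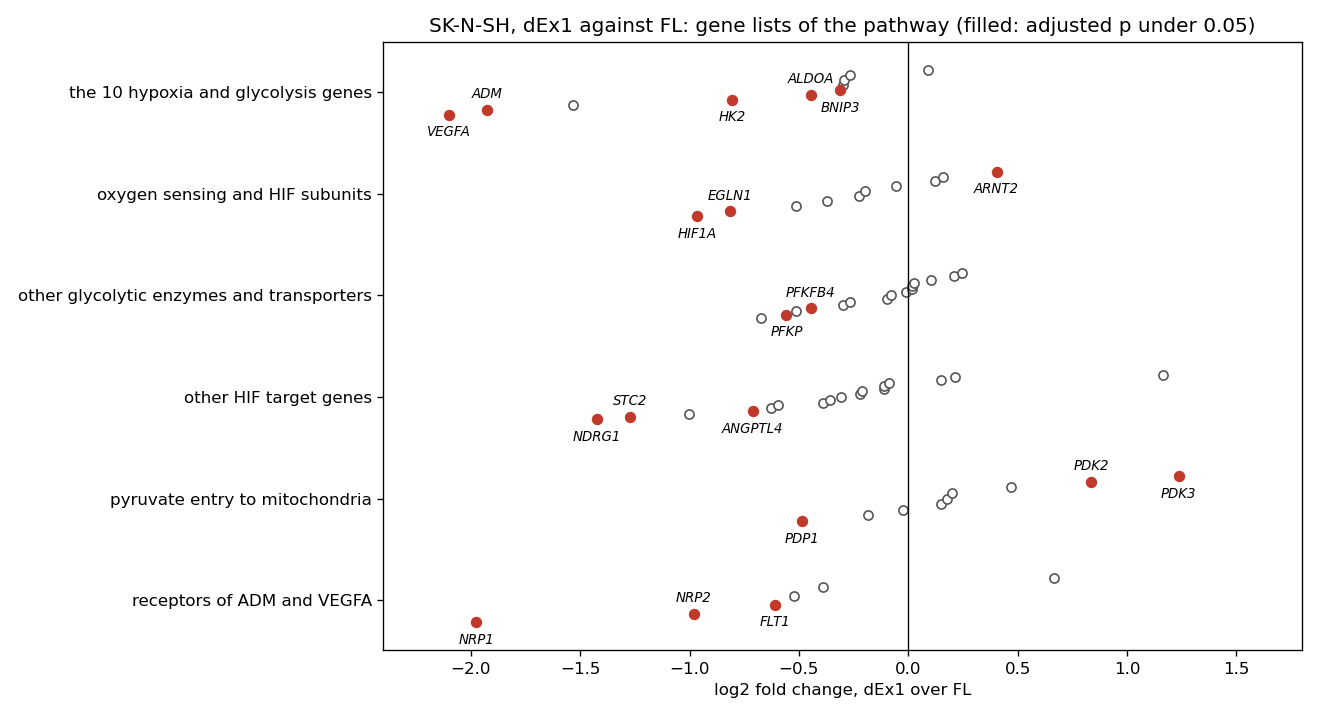
Fitted log2 fold change of dEx1 over FL in SK-N-SH for the 10 genes and for 5 lists of related genes, 1 point per gene; filled points, with names, had an adjusted p under 0.05. Most filled points lie left of 0, from VEGFA at -2.10 to BNIP3 at -0.31, while ARNT2, PDK2 and PDK3 lie right of it.

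In BON-1 none of the 10 genes passed in any comparison of constructs by edgeR or by DESeq2, and in the edgeR fit without a block none had an unadjusted p under 0.05. All genes gave few calls in this line, 0.00671% for FL against vector (1 of 14903), 0.0134% for dEx1 against vector (2 of 14903) and 0% for dEx1 against FL, where 156 genes had an unadjusted p under 0.05 and 8 were called by DESeq2. ADM was at 75.8, 95.6 and 128 CPM with FL, 73.3, 85.1 and 114 CPM with dEx1 and 60.1, 82.3 and 107 CPM with vector. Its 3 groups overlapped, and replicate 3 was the highest library in each of them. Within each replicate number, both FL and dEx1 lay above vector. The FL change of ADM was 0.26 (SE 0.27, 95% interval -0.35 to 0.87, edgeR adjusted p = 0.928), and with the replicate block 0.27 (SE 0.09, adjusted p = 0.599). HK2, at 138, 114 and 144 CPM with dEx1 and 106, 131 and 172 CPM with vector, had a dEx1 change of -0.04 (95% interval -0.51 to 0.43).

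Vector replicate 1 of BON-1 held the extreme vector value of several members. LDHA was at 642, 570 and 582 CPM with dEx1 and 266, 559 and 558 CPM with vector, groups that did not overlap, as for 5.07% of all genes in that direction. VEGFA was at 48.6, 42.1 and 62.5 CPM with FL, 48.1, 62.9 and 54.3 CPM with dEx1 and 135, 53.3 and 57.3 CPM with vector. CA9, which is abundant in this line, was at 42.5, 31.6 and 28.4 CPM with FL, 60.9, 43.0 and 33.7 CPM with dEx1 and 57.2, 55.1 and 34.8 CPM with vector, a change of -0.52 (SE 0.27, edgeR adjusted p = 0.928) for FL. FL lay below vector in each replicate number, and with the block the change was -0.51 (SE 0.13, adjusted p = 0.599). Over the 10 genes the BON-1 log2 changes ran from -0.67 (VEGFA) to 0.35 (BNIP3) for FL and from -0.56 (VEGFA) to 0.42 (BNIP3) for dEx1, both against vector. For FL they were 0.09 for ALDOA, 0.21 for PGK1, -0.21 for SLC2A1 and -0.08 for PDK1. For dEx1 they were 0.11 for ALDOA, 0.35 for PGK1, 0.09 for SLC2A1 and 0.40 for PDK1. Each of these intervals held 0. Without vector replicate 1 the count of members called was again 0 in all 3 comparisons. No gene of the 5 lists passed in BON-1.

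In QGP-1 none of the 10 genes passed in any comparison of constructs by edgeR or at an unadjusted p under 0.05. Nor did any pass by DESeq2, which gave no adjusted p for CA9. By edgeR 0.0275% of 14522 genes were called for FL against vector (4 genes), 0.0207% for dEx1 against vector (3 genes) and 0.0138% for dEx1 against FL (2 genes). No gene of the 5 lists passed either. SLC2A1 was the only member whose QGP-1 groups did not overlap, at 79.1, 80.0 and 65.3 CPM with dEx1 and 90.0, 113 and 95.4 CPM with FL, as for 2.54% of all genes in that direction. With a term for the side of the first component, the count of members stayed at 0.

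The 5 QGP-1 libraries on the larger side of the component were above the other 4 without overlap for HK2 (79.6 to 93.8 against 53.3 to 65 CPM), ALDOA (1406 to 2101 against 1017 to 1085 CPM), PGK1 (386 to 525 against 317 to 350 CPM) and LDHA (540 to 1206 against 369 to 421 CPM). VEGFA was below without overlap, at 42.1 to 58.0 against 73.9 to 87.0 CPM. Of all 14522 genes 19.1% were above and 20.4% below without overlap, and since the sides were drawn from the same libraries these counts are a description. ADM, SLC2A1, CA9, PDK1 and BNIP3 overlapped between the sides. Within replicate 1, ADM was low in all 3 groups, at 10.6 CPM with FL, 11.5 CPM with dEx1 and 12.3 CPM with vector, while the other 6 libraries had 19.1 to 22.6 CPM. CA9 was at 6.46, 2.75 and 6.0 CPM in replicate 1 and at 0.366 to 0.895 CPM in the other 6. Those 3 libraries were thus lowest for ADM and highest for CA9.

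**Figure D4:**
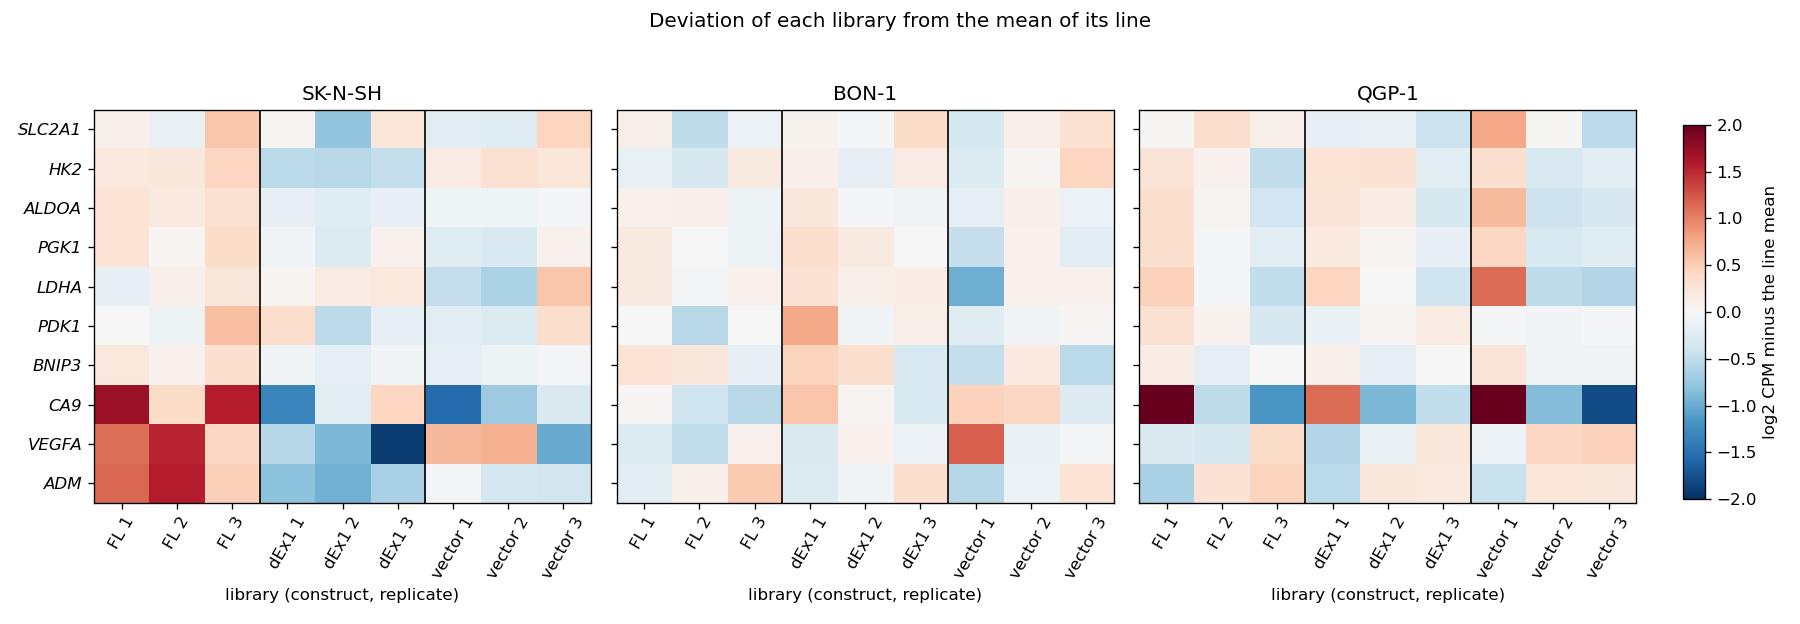
Difference of each library's log2 CPM from the mean of its line, by gene (rows) and library (columns, replicates of FL, dEx1 and vector), with colours cut off at 2 and -2. ADM and VEGFA are high in SK-N-SH FL libraries and low in dEx1 libraries. In QGP-1 the columns of replicate 1 stand out for CA9 and ADM in all 3 groups, and for LDHA in vector.

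Whether a construct acted differently in the lines was tested in 1 model of all 27 libraries. No member passed for either construct by edgeR or by DESeq2. For the FL effect in SK-N-SH against BON-1 (0.284% of 16883 genes called) 3 members had an unadjusted p under 0.05. They were ADM, with a difference of 1.11 (SE 0.43, edgeR adjusted p = 0.394), VEGFA, with 1.47 (SE 0.59, adjusted p = 0.413), and CA9, with 2.62 (SE 1.21, adjusted p = 0.497). Against QGP-1 (0.16% called) ADM alone was under 0.05 unadjusted, with a difference of 1.32 (SE 0.44, adjusted p = 0.308). For the dEx1 effect, HK2 alone was under 0.05 unadjusted in SK-N-SH against BON-1 (0.332% called), with -0.72 (SE 0.29, adjusted p = 0.357), and against QGP-1 (0.521% called), with -0.94 (SE 0.29, adjusted p = 0.186). Between BON-1 and QGP-1 no member had an unadjusted p under 0.05 for FL (0.0118% of genes called) or dEx1 (0% called, with 660 genes at an unadjusted p under 0.05).

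Same-numbered libraries varied together in SK-N-SH and in BON-1, and a replicate block within each line changed this contrast. With it, ADM (1.08, SE 0.26, adjusted p = 0.0450) and CA9 (2.66, SE 0.57, adjusted p = 0.0282) passed for the FL effect in SK-N-SH against BON-1, and HK2 passed for the dEx1 effect (-0.73, SE 0.19, adjusted p = 0.0499). The block also raised the share of all genes called, from 0.284% to 1.88% for the FL effect and from 0.332% to 2.86% for the dEx1 effect. The vector libraries enter both the FL and the dEx1 effects of a line.

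Over the 9 libraries of a line, both secreted members had a wider range in SK-N-SH than in the other lines. ADM ran from 26.0 to 151 CPM there (median 39.7, a 5.79-fold range), 60.1 to 128 CPM in BON-1 (median 85.1, 2.13-fold) and 10.6 to 22.6 CPM in QGP-1 (median 19.4, 2.13-fold). VEGFA ran from 28.0 to 300 CPM in SK-N-SH (10.7-fold), 42.1 to 135 CPM in BON-1 (3.21-fold) and 42.1 to 87.0 CPM in QGP-1 (2.06-fold). ALDOA and PGK1 were the steadiest of the glycolytic genes in SK-N-SH, at 1.46-fold and 1.59-fold. BNIP3 had the narrowest range in SK-N-SH and QGP-1, at 1.45-fold and 1.37-fold.

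A mean profile of 9 of the genes, without CA9 for its low level, was formed over the 27 libraries after removal of each line's mean. Genes of the pathway and marker lists were left out of the search, so the ranking does not cover them. Among 9561 genes outside the lists, averaging at least 2 CPM in each line, the most similar profiles were those of ATIC (Pearson r = 0.873), PUM3 (0.871), HNRNPH3 (0.868), EIF4A1 (0.864) and AGMAT (0.854). These correlations are across libraries that share constructs and replicate numbers, and are given as a description.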

How the data were processed

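Polyadenylated RNA was sequenced after a TruSeq mRNA preparation, per the labels' protocols. Trimmomatic, HISAT2 on hg19 and StringTie are named in the submitters' processing notes; versions, annotation and the use of strand are not given in the sources used here. The authors deposited whole-number estimated counts per gene for 27 libraries in 23234 lines. Of these, 4 symbols repeat on a second, identical line, which left 23230 symbols. Low values heap at 5, so what 1 fragment is worth is unknown. Counts per gene cannot tell a construct from native MAML3. No 2 libraries were identical.

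Each line was fitted on its 9 libraries, the vector libraries of the 3 lines together, and construct by line in all 27, with edgeR 4.0.16 (TMM scaling, filterByExpr, quasi-likelihood F test) in R 4.3.3. P-values were adjusted by Benjamini-Hochberg over all genes tested, with a threshold of 0.05, and intervals of fold changes use the fit's t quantile. The p-values measure the spread between the deposited replicates. Alternatives were no filter, DESeq2 size factors, DESeq2 1.42.0, a replicate block, all 27 libraries, SK-N-SH without replicate 3, a term for the QGP-1 component and each library left out. Nothing in the labels says what a shared replicate number means. Deviations of same-numbered libraries from their group means correlated at 0.110 or more in each pair of SK-N-SH and BON-1 groups, above the 0.1 required, so the numbers were taken as pairing there. Between QGP-1 FL or dEx1 and vector, the lowest were -0.369 and -0.402, so they were not. Results that do not name the block, and the plotted fold changes, come from fits without it. The edgeR step was tested on simulated data. Figures were drawn with matplotlib 3.10.9. Gene positions are GENCODE v44 lifted to GRCh37, MANE transcript.

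The 10 genes and the pathway and marker lists were chosen with earlier results of these data known. The rule names all 10 members in each comparison and up to 4 genes past the threshold from each list; members without a printed value in BON-1 or QGP-1 are in the plot of fold changes. Mitochondrially encoded messages were not used here.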

Additional observations from a re-analysis of the deposited data

How the results depend on the processing

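Over the alternatives, 183 of 3594 member values changed sign, 112 of 1317 within a line; none of these belonged to a member called in the comparison. Of 285 alternative values for members called, all kept their sign and 239 the call. For FL against vector in SK-N-SH, 1 member was called; DESeq2 called 4 and omission of replicate 3 gave 3, and with 1 library left out the count was 0 to 1. For dEx1 against vector there, 1 was called, 2 by DESeq2, 4 without replicate 3, and 1 to 3 with 1 library left out. For dEx1 against FL, 5 were called, 3 with all 27 libraries, and 3 to 5 with 1 library left out. Between SK-N-SH and BON-1 vector libraries 5 were called, and 1 to 5 with 1 library left out. Of the other vector comparisons, leaving out 1 library gave 3 to 4 (SK-N-SH and QGP-1) and 4 to 6 (BON-1 and QGP-1). The cause of these shifts was not tested.

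With the replicate block, by the pairing, 4 members were called for FL against vector in SK-N-SH and 2 for dEx1 against vector. The block gave 2 for the FL effect and 1 for the dEx1 effect of SK-N-SH against BON-1 (1.88% and 2.86% of all genes called). Against QGP-1, where the numbers did not pair, it gave 1 for FL (ADM, edgeR adjusted p = 0.0180) and 1 for dEx1 (HK2, adjusted p = 0.0149). There 1.83% and 3.77% of all genes were called. Within BON-1 or QGP-1 the block called no member. In the vector comparisons it joined same-numbered libraries of different lines, for which no pairing was checked. There the calls of ALDOA between SK-N-SH and BON-1 and of SLC2A1 between BON-1 and QGP-1 were lost.

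Counts over all genes in SK-N-SH moved further. FL against vector gave 255, 1168 by DESeq2, 778 with the block, 1020 without replicate 3 and 21 to 364 with 1 library left out. For dEx1 against vector these were 656, 1997, 2212, 3267 and 80 to 2558. For dEx1 against FL the count was 3226, 4818 with the block and 1857 to 4024 with 1 library left out. DESeq2 called 28, 35 and 8 genes in BON-1, against 1, 2 and 0 by edgeR, and 112, 59 and 19 in QGP-1, against 4, 3 and 2. Its adjusted p for CA9 was not available between vector libraries or within QGP-1. CA9 counts as low as 36 in a QGP-1 library limit what can be seen there.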
